A study of Homo sapiens with 18 samples.

Results

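The NRF2 pathway genes NFE2L2, KEAP1, NQO1, AKR1C1, AKR1C3, AKR1B10, GCLM, TXNRD1, SLC7A11 and HMOX1 were examined for chromatin accessibility in 3 human head and neck squamous cell carcinoma (HNSCC) lines, SCC1, SCC6 and SCC25. A region of the deposited table was taken as a member where it overlapped the body of 1 of the 10 genes extended by 10 kb on both sides (GENCODE 44 on GRCh37, also called hg19), which gave 61 of 115087 regions. The number was 51 with 5 kb and 76 with 25 kb on each side, and no region lay in the windows of 2 genes. Open chromatin was mapped by ATAC-seq, an assay that sequences the DNA cut and tagged by Tn5 transposase where chromatin is accessible. Cells of each line received cetuximab, an antibody that blocks the epidermal growth factor receptor (EGFR), at 100 nM daily, or PBS as the untreated control, over 5 days. The 6 groups held 3 libraries each, apart from SCC1 PBS with 2, since its replicate 2 was not analysed here. The lines are established tumour lines grown on plastic, and the labels do not say whether replicates came from separate cultures, so p-values measure the spread between these libraries, which may be technical.

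NRF2, the product of NFE2L2, is a transcription factor that turns on genes for antioxidant defence and detoxification. In unstressed cells KEAP1 holds NRF2 in the cytoplasm and presents it to the CUL3 ubiquitin ligase for destruction, and oxidants or electrophiles that modify KEAP1 let NRF2 reach the nucleus. There it pairs with a small MAF protein and binds the antioxidant response element, and mutations of NFE2L2, KEAP1 and CUL3 are well known in squamous carcinomas.

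The 61 regions had a median width of 303 bases, against 258 over all regions. NFE2L2 held 20 of them, TXNRD1 12, SLC7A11 7, AKR1B10 5, HMOX1 4, AKR1C3 4, KEAP1 3, and GCLM, NQO1 and AKR1C1 2 each. The NFE2L2 window was wide because the annotated gene body (chr2:178083395-178257484, minus strand) includes long transcripts that begin far upstream of the canonical start site at 178129455, close to the start of AGPS. Regions are named here by the distance in kb of their centre from the canonical start site, with negative values upstream. Of the 61 regions, 16 lay within 1 kb of a start site of a protein-coding transcript of their own gene (called promoter regions), 28 were intronic, 17 exonic, 8 upstream and 8 downstream. At 15 regions a start site of another gene lay within 1 kb. Between 23.0% and 75.4% of the 61 regions had a peak in a library, against 10.8% to 75.6% of all regions. Of the 61, 3 had a peak in every library and 25 had peaks in 1 line only. These last counts were not made over all regions, so they are not read as a trait of the pathway.

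The sequences of 5 regions are shown, from GRCh37, plus strand, 5′ to 3′. The 4 regions of NFE2L2, KEAP1 and TXNRD1 are distal sites whose accessibility rose in SCC6 after cetuximab, and that of HMOX1 is an upstream region with a pair of antioxidant response elements. Capitals mark each match to TGACNNNGC, the core of the antioxidant response element (N is any base), on either strand, or to TGACTCA, the site of the AP-1 factors, which may lie inside it as TGACTCAGC. A TGACTCA on the minus strand reads TGAGTCA here. NFE2L2 at -60.8 kb (the middle 300 bases of the region, chr2:178190128-178190427) and KEAP1 at -7.3 kb (chr19:10621195-10621480) held no match. NFE2L2 at -63.5 kb (chr2:178192789-178193056) held 1 AP-1 site. TXNRD1 at +131.8 kb (chr12:104741246-104741479) held 1 element with an AP-1 site inside it. HMOX1 at -4.0 kb (chr22:35772916-35773175) held 2 elements whose starts were 64 bases apart, 1 of them with an AP-1 site.
NFE2L2 -60.8 kb: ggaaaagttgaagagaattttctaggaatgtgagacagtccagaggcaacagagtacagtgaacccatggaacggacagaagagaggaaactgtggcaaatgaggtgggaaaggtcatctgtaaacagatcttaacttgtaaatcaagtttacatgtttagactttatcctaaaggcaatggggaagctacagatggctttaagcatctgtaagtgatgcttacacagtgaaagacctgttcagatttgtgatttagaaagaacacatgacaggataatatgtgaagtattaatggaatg
NFE2L2 -63.5 kb: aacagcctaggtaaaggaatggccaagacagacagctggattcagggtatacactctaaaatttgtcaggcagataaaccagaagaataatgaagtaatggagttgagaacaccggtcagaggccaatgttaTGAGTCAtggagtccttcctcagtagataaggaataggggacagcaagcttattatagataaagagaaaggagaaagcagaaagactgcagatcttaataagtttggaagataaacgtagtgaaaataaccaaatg
KEAP1 -7.3 kb: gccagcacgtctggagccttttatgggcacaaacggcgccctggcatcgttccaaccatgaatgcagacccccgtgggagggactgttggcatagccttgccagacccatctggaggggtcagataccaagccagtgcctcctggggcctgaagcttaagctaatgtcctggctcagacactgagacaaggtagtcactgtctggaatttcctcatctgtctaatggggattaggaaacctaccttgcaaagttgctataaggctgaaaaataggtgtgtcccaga
TXNRD1 +131.8 kb: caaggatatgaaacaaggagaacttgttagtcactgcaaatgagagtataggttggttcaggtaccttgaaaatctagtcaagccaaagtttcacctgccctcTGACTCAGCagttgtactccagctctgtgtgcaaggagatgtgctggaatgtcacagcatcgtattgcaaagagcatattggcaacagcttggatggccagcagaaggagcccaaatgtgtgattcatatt
HMOX1 -4.0 kb: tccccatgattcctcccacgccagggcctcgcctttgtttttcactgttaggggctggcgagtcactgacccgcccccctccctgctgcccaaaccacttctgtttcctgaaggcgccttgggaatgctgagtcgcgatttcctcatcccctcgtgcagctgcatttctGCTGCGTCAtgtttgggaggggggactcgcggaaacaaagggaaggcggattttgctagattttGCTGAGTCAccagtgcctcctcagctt

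Over all 61 regions, TGACNNNGC was found in 22 (36.1%), against 15.01% of all 115087 regions. Since the member regions were wider, the number per length was also counted, and it was 12.5 against 5.17 per 10 kb. TGACTCAGC was found in 5 of the 61 (8.20%), against 2.77% of all regions. The AP-1 site alone was about as frequent as elsewhere per length, with 20 of 61 regions (32.8% against 26.6%) and 9.58 against 9.43 sites per 10 kb. A match is a description of the letters and not a measured binding site.

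The signal in the deposited table is a scaled read count per region. Reads in regions ranged from 2194851 to 15017130 per library, and between 10.8% and 75.6% of all regions had a peak in a library. In SCC25, PBS libraries held 5509462 to 13408698 reads and cetuximab libraries 2513828 to 7385401, and in SCC1 they held 3577180 and 4171650 against 2194851 to 3665345. Depth therefore moved with treatment in both lines. In SCC6 it moved the other way, with 4098164 to 7260488 reads in PBS libraries and 5271491 to 15017130 in cetuximab libraries. There, 40.5% to 55.9% of all regions had a peak in a PBS library and 51.6% to 75.6% in a cetuximab library. The part of depth in the results was not tested in any line. As a check of the labelled cell type, CDH1 had a promoter peak in 14 of 17 libraries, KRT5 in 8, TP63 in 7, KRT14 in 6, DSG3 in 5 and KRT6A in 4. These were uneven between lines, since TP63 and KRT6A had no such peak in SCC1 and KRT14, KRT6A and DSG3 none in SCC6. No promoter region was listed for the blood cell genes PTPRC and CD3E, the endothelial gene CDH5 or the melanocyte gene MLANA. The fibroblast genes COL1A2 and PDGFRA had promoter peaks in 11 and 7 libraries. Each library pools many cells, so fewer cells with an open site and less opening per cell cannot be told apart.

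Cetuximab was compared with PBS in each line to ask which NRF2 pathway regions opened or closed within 5 days. In SCC6, distal regions in the long 5′ part of NFE2L2 and upstream of KEAP1 opened. The strongest TXNRD1 promoter region and an upstream start region of NFE2L2, shared with another gene, lost signal. In SCC1, regions of KEAP1 and TXNRD1 and the start of MCM5 downstream of HMOX1 rose, while a TXNRD1 and an NFE2L2 region fell. Each of these calls was lost under at least 1 alternative, and SCC1 PBS held only 2 libraries. In SCC25 no region passed the test. Differences are on the log2(signal + 1) scale, cetuximab minus PBS, from limma with Benjamini-Hochberg adjustment over all tested regions. The 25% of regions with the lowest mean signal in a fit were left out, which removed 9 to 17 of the 61 member regions depending on the line.

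In SCC6, 9 of 44 tested member regions passed the test, 6 higher and 3 lower. Over all 86315 regions tested in this line, 16.9% were called higher and 10.6% lower, so the members' share was near that of the table as a whole. The median difference was -0.02 over the member regions and 0.11 over all regions. In SCC1, 6 of 52 passed, 4 higher and 2 lower, where 4.58% of all 86298 tested regions were called higher and 6.56% lower. The medians were -0.06 over the members and -0.09 over all regions. In SCC25, limma called 0 of 50 (5 at an unadjusted p under 0.05), edgeR 0 (8) and DESeq2 0 (5), where 0.0405% of all 86315 tested regions were called higher and 0.275% lower by limma. Of all 86315, 11405, 11871 and 8056 had an unadjusted p under 0.05 with limma, edgeR and DESeq2. The interaction of line and treatment, which asks whether the change differed between lines, passed at 3 of 49 member regions, against 13.2% of all regions. These 3 were NFE2L2 at -58.2 kb, NFE2L2 at -60.8 kb and the KEAP1 promoter region.

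The split between directions in SCC6 depended on the scaling, and so did the SCC25 count. With each library centred on its median, the SCC6 count was 5 higher and 11 lower, while the median of all regions moved from 0.11 to -0.07. With quantile normalisation it was 5 higher and 4 lower, and with edgeR 6 and 6. Over all 86315 regions tested in SCC6, the counts under these settings were 10174 and 16459, 11335 and 12369, and 13184 and 11561. Another alternative scaled each library on the reads of its peak-free regions (background scaling), and with it the count was 11 higher and 2 lower in SCC6 and 0 higher and 7 lower in SCC25, with medians of all regions of 0.33 and -0.37. Over all 86315 tested regions, background scaling called 26392 higher and 5260 lower in SCC6 and 106 higher and 13488 lower in SCC25. In SCC1 the count was 8 higher and 1 lower with median centring, 5 and 1 with quantile normalisation, and 4 and 3 with background scaling. Over all 86298 regions tested in SCC1, these were 7260 and 3531, 5293 and 4861, and 3286 and 6504. The SCC1 count also changed when a library was left out, and without a PBS library only 1 control remained. Leaving out a library gave 1 (cetuximab replicate 1 or PBS replicate 3), 2 (PBS replicate 1), 3 (cetuximab replicate 3) or 9 (cetuximab replicate 2).

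**Figure D1:**
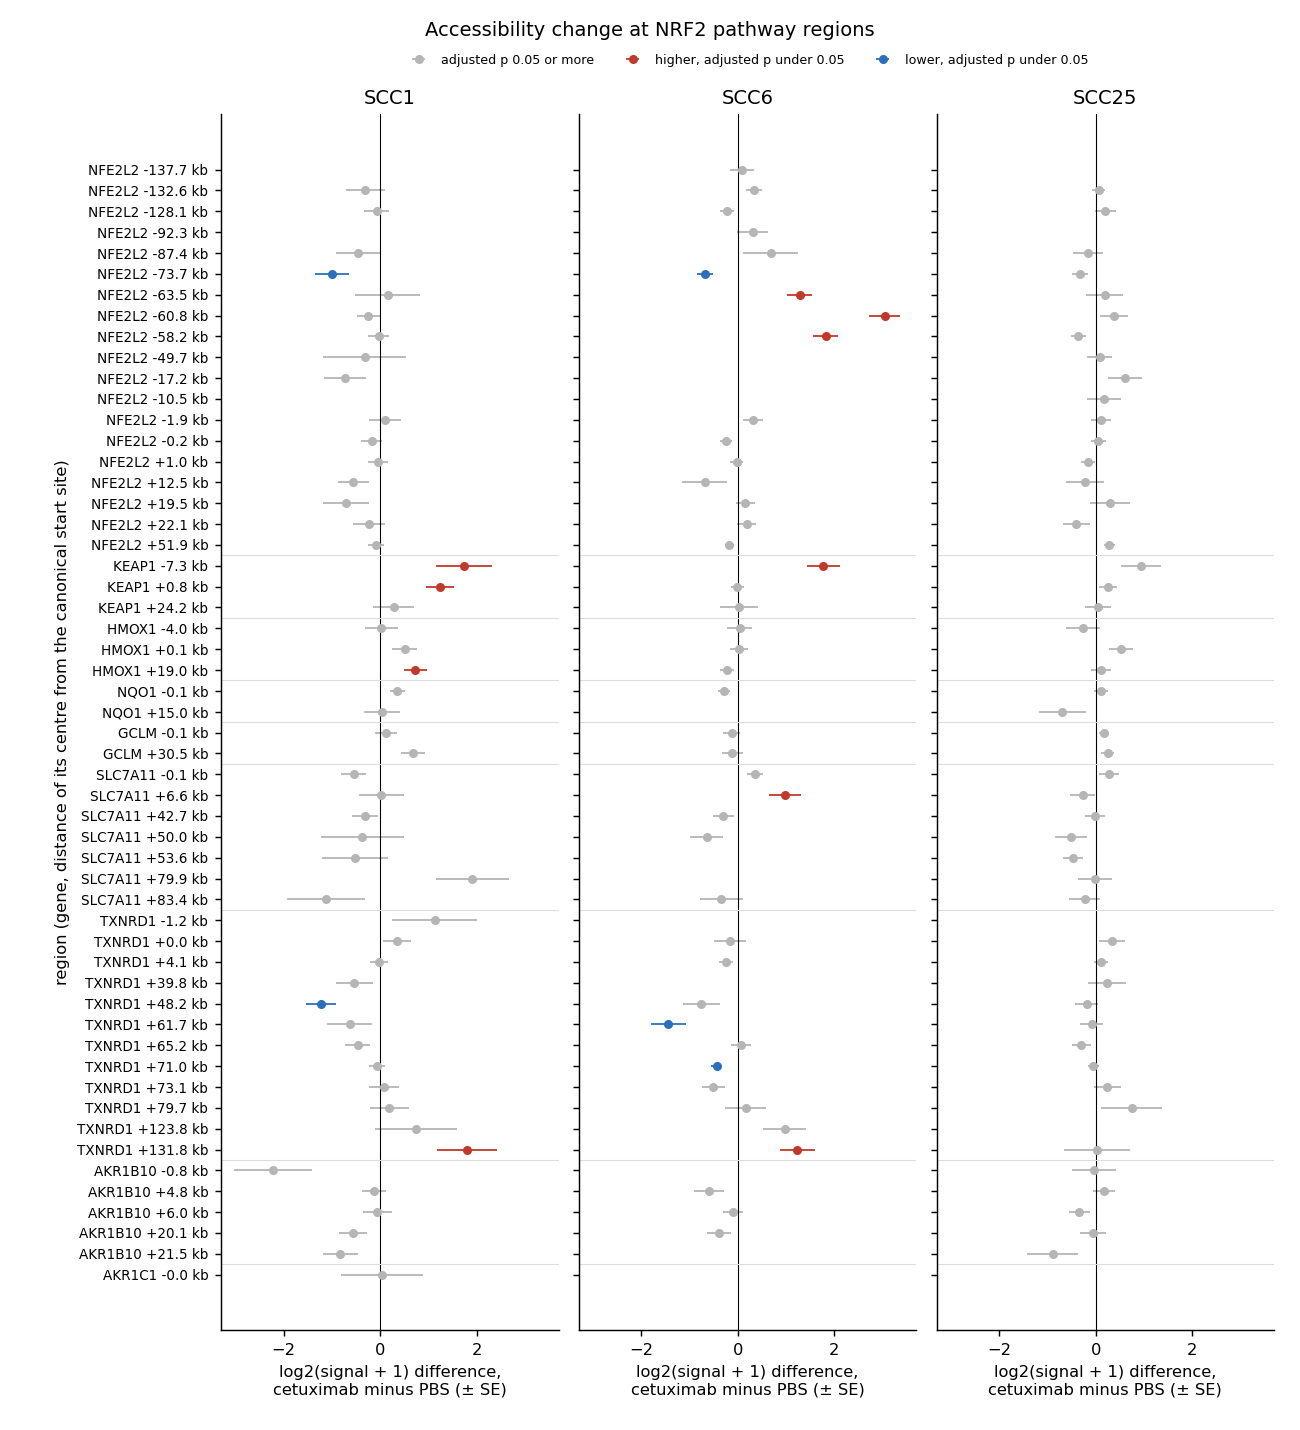
Difference in log2(signal + 1), cetuximab minus PBS, with its SE at the tested regions of the NRF2 pathway genes (vertical axis, grouped by gene, without 1 HMOX1 region not reported here) in SCC1, SCC6 and SCC25, where red and blue points had an adjusted p under 0.05. The points called in SCC6 reach 3.05 at NFE2L2 -60.8 kb, and SCC25 has no coloured point.

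In SCC6 the largest changes lay in NFE2L2, where 3 neighbouring regions between -58.2 and -63.5 kb opened after cetuximab. They lay inside the introns and exons of its long transcripts and also overlapped another gene without a symbol. At -60.8 kb (chr2:178190088-178190468, intron, sequence above) the SCC6 signal was 15.7, 8.70 and 4.35 in the PBS libraries and 85.9, 66.8 and 82.7 after cetuximab. SCC1 was open in both arms, with 130.1 and 128 in PBS and 105, 111 and 109.5 after cetuximab. SCC25 held 44.8, 39.7 and 22.1 in PBS and 54.8, 54.7 and 30.1 after cetuximab. Every treated SCC6 library lay above every SCC6 control and below every SCC1 library, while SCC1 treated libraries lay below their controls and SCC25 arms overlapped. The difference was 3.05 ± 0.32 (SE; adjusted p = 2.49e-10) in SCC6, -0.25 ± 0.24 (adjusted p = 0.569) in SCC1 and 0.39 ± 0.29 (adjusted p = 0.593) in SCC25. The change differed between lines (interaction, adjusted p = 3.58e-05). Peaks were called there in 0 SCC6 PBS libraries, 2 SCC6 cetuximab libraries, all 5 SCC1 libraries and 0 SCC25 libraries.

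At -58.2 kb (chr2:178187413-178187875, 463 bases), in an untranslated exon of a long NFE2L2 transcript and within 1 kb of a start of an overlapping gene without a symbol, the arms also separated in SCC6. Its signal was 15.7, 23.4 and 22.8 in SCC6 PBS and 78.8, 66.8 and 78.0 in SCC6 cetuximab. In SCC1 it was 131 and 169.7 in PBS and 157, 154 and 129.9 after cetuximab. In SCC25 it was 173, 148 and 171 in PBS and 108, 141 and 135 after cetuximab. SCC6 controls were therefore the lowest libraries by far, the SCC1 arms overlapped, and the SCC25 treated libraries lay below their controls without passing the test. The difference was 1.82 ± 0.26 (adjusted p = 2.35e-07) in SCC6, -0.03 ± 0.22 (adjusted p = 0.959) in SCC1 and -0.36 ± 0.15 (adjusted p = 0.291) in SCC25, and it differed between lines (interaction, adjusted p = 4.07e-06). A peak was called in 0 of 3 SCC6 PBS libraries and in all libraries of the other 5 groups.

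At -63.5 kb (chr2:178192789-178193056, intron, with the AP-1 site shown) the SCC6 signal was 16.9, 38.1 and 25.01 in PBS and 68.7, 66.8 and 54.2 after cetuximab. The other lines were low in both arms, between 7.62 and 17.5 in SCC1 and between 12.7 and 35.4 in SCC25. The SCC6 groups did not overlap, and this region was the only 1 of the 3 at which SCC6 reached the highest level of the lines. The SCC6 difference was 1.28 ± 0.27 (adjusted p = 2.15e-04), but that the change differed between lines was not shown (interaction, adjusted p = 0.272). The calls at the 3 regions in SCC6 were kept under all 15 alternatives run. Of the other regions within 1 Mb of the NFE2L2 window, 11 of 59 were called in SCC6, with a median of -0.10.

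Further upstream, at -73.7 kb (chr2:178202868-178203509), a region within 1 kb of an alternative NFE2L2 start moved the other way. This region also lay within 1 kb of a start of the overlapping gene without a symbol. Its signal was 134, 124 and 139 in SCC6 PBS and 75.8, 108 and 67.8 in SCC6 cetuximab. In SCC1 it was 70.3 and 64.8 in PBS and 40.6, 40.9 and 21.9 after cetuximab, and in SCC25 it was 106, 102 and 118 in PBS and 88.6, 81.4 and 88.6 after cetuximab. All treated libraries lay below all controls of the same line, in each of the 3 lines. The difference was -0.68 ± 0.17 in SCC6 (adjusted p = 0.00177), -1.002 ± 0.35 in SCC1 (adjusted p = 0.0423) and -0.33 ± 0.17 in SCC25 (adjusted p = 0.399). The SCC6 call was kept in all 15 alternatives. The SCC1 call was lost in 10 of 14, with an adjusted p of 0.0535 and 0.203 when cetuximab replicates 1 and 3 were left out and of 0.366 and 0.226 when PBS replicates 1 and 3 were.

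Around the canonical NFE2L2 start, where the well-studied transcript begins, no region was called in any line. The region at 0.96 kb had mean signals of 175 ± 27.0 (SD) in SCC1 PBS, 170.2 ± 34.0 in SCC1 cetuximab, 168 ± 27.9 in SCC6 PBS, 164 ± 10.6 in SCC6 cetuximab, 145 ± 3.60 in SCC25 PBS and 131 ± 7.31 in SCC25 cetuximab. Its neighbour at -0.18 kb lay between 118 and 211 in all 17 libraries. Peaks were called at these regions in 14 and 13 of the 17 libraries. The region with the most signal in the window, at 51.9 kb, was the start of HNRNPA3, a gene for an RNA-binding protein downstream of NFE2L2, and it lay between 223.5 and 452 in all libraries without passing the test in any line.

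**Figure D2:**
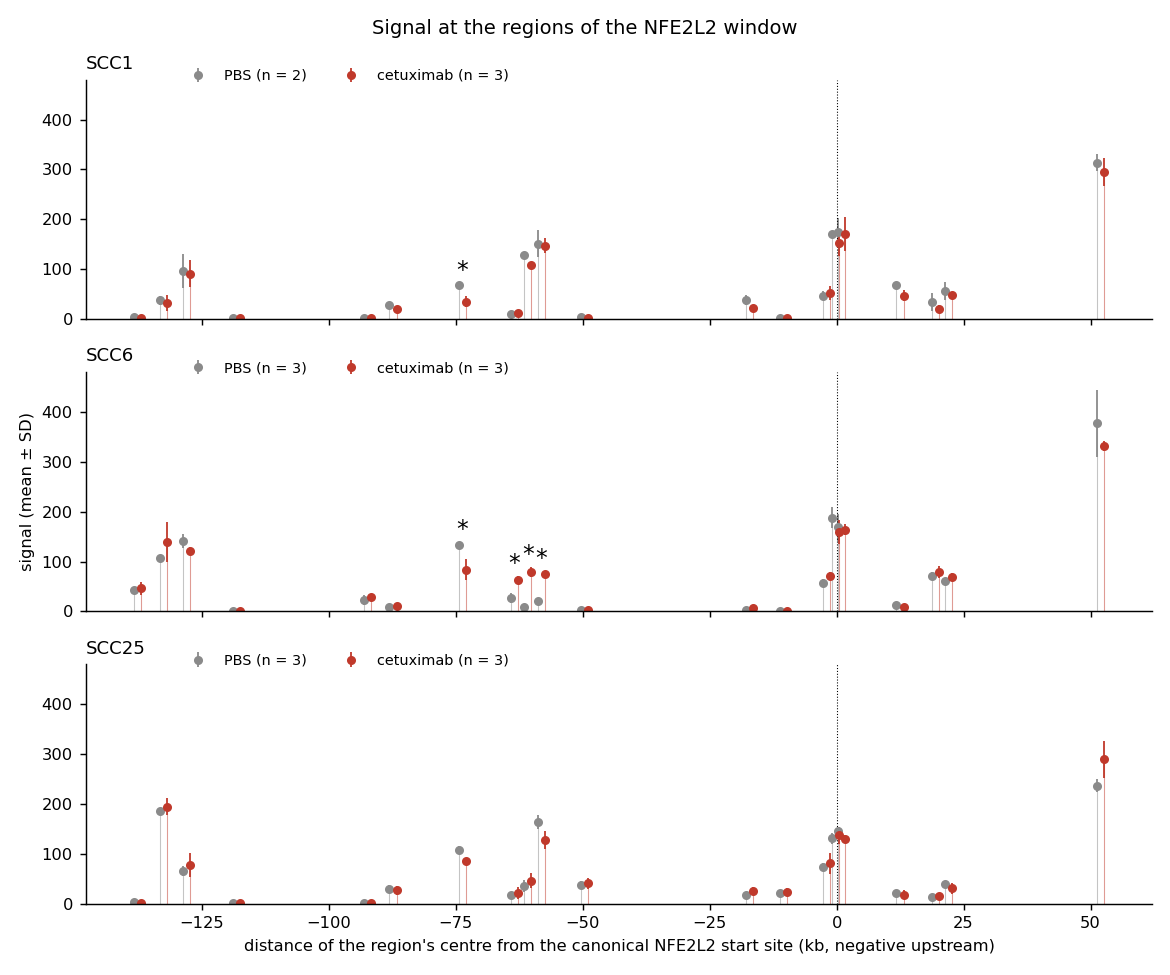
Mean signal with its SD at the 20 regions of the NFE2L2 window against the distance in kb of each region's centre from the canonical start site, in PBS (grey) and cetuximab (red) libraries of each line, where a star marks an adjusted p under 0.05. In SCC6 the stars stand at -58.2, -60.8 and -63.5 kb, where red lies above grey, and at -73.7 kb, where it lies below.

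KEAP1, the inhibitor of NRF2, had 3 regions. The upstream region at -7.3 kb (sequence above) opened in SCC6 and, less firmly, in SCC1. Its signal was 8.46, 8.03 and 14.1 in SCC6 PBS and 43.4, 29.7 and 36.7 in SCC6 cetuximab. In SCC1 it was 5.20 and 8.93 in PBS and 43.2, 21.4 and 17.2 after cetuximab, and in SCC25 it was 8.67, 18.0 and 9.33 in PBS and 15.5, 20.2 and 37.2 after cetuximab. The arms did not overlap in SCC6 and SCC1 and overlapped in SCC25. The SCC1 PBS libraries held only 4 and 8 reads there, where 1 read is the floor, so the size of the SCC1 rise is uncertain. Differences were 1.77 ± 0.34 in SCC6 (adjusted p = 7.94e-05), 1.74 ± 0.59 in SCC1 (adjusted p = 0.0340) and 0.94 ± 0.42 in SCC25 (adjusted p = 0.331), and they were not shown to differ (interaction, adjusted p = 0.563). Peaks were called there in 3 of 3 SCC6 cetuximab libraries and in no other library. The SCC1 call was lost in 6 of 14 alternatives, among them leaving out cetuximab replicate 1 (adjusted p = 0.273), PBS replicate 1 (0.316) or PBS replicate 3 (0.0736).

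The KEAP1 promoter region (chr19:10612780-10613700) had 40.3 and 38.0 in SCC1 PBS and 149, 72.0 and 78.2 in SCC1 cetuximab. SCC6 was high in both arms, with 141, 183 and 177 in PBS and 156, 182 and 159 after cetuximab. SCC25 lay between, with 83.7, 74.3 and 60.2 in PBS and 94.2, 91.2 and 74.4 after cetuximab. Only in SCC1 did the arms separate, and cetuximab replicate 1 stood far above the other treated libraries. The difference was 1.25 ± 0.30 in SCC1 (adjusted p = 0.00114), and the change differed between lines (interaction, adjusted p = 0.0165). Both calls ended when the trend with GC content was removed (adjusted p = 0.332 and 0.422), at a region with 72.1% GC, and without SCC1 cetuximab replicate 1 (0.0909 and 0.0569). The interaction was also lost without SCC1 PBS replicate 1 (0.0513) or replicate 3 (0.0702) and with background scaling (0.0544). The surroundings moved with this promoter, since 42 of 115 other tested regions within 1 Mb were called in SCC1 with a median difference of 0.85, and the part of GC content in the result was not tested further. The region at 24.2 kb, downstream of KEAP1, did not pass the test in any line.

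TXNRD1 encodes thioredoxin reductase, which keeps thioredoxin reduced. At +131.8 kb, in an intron and with the element TGACTCAGC (sequence above), the SCC6 signal was 10.9, 14.1 and 7.61 in PBS and 25.3, 34.4 and 20.5 after cetuximab. In SCC1 it was 5.20 and 6.70 in PBS and 29.2, 19.5 and 21.9 after cetuximab, and in SCC25 it was 8.67, 5.05 and 2.54 in PBS and 1.41, 5.86 and 12.4 after cetuximab. The region thus rose from a low level in SCC6 and SCC1, where arms did not overlap, and stayed low in SCC25. The SCC1 PBS libraries held only 4 and 6 reads there, so the size of the SCC1 rise is uncertain. Differences were 1.23 ± 0.37 in SCC6 (adjusted p = 0.00948), 1.81 ± 0.62 in SCC1 (adjusted p = 0.0369) and 0.03 ± 0.69 in SCC25 (adjusted p = 0.989), without a shown difference between lines (interaction, adjusted p = 0.221). Peaks were called in 3 of 3 SCC6 cetuximab libraries and in no other. The SCC6 call was lost without cetuximab replicate 2 (adjusted p = 0.0938). The SCC1 call was lost in 6 of 14 alternatives, among them leaving out cetuximab replicates 1 (0.173) or 3 (0.0763) or PBS replicates 1 (0.242) or 3 (0.115).

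The TXNRD1 promoter region with the most signal, at 70.96 kb, fell in SCC6. Its signal was 266, 239.5 and 300.2 in SCC6 PBS and 209, 208 and 177 in SCC6 cetuximab, while SCC1 and SCC25 lay between 235 and 316 in both arms. The SCC6 arms did not overlap, with a difference of -0.43 ± 0.11 (adjusted p = 0.00264) that shrank to -0.21 (adjusted p = 0.144) with background scaling. An intronic region at 61.7 kb also fell in SCC6, from 37.5, 38.8 and 21.8 in PBS to 6.06, 14.9 and 14.5 after cetuximab (-1.44 ± 0.36, adjusted p = 0.00199). In SCC1 the intronic region at 48.2 kb held 87.2 and 112 in PBS and 29.2, 40.9 and 59.5 after cetuximab. Its arms did not overlap, and the difference was -1.23 ± 0.31 (adjusted p = 0.00250), which was -1.09 with the GC trend removed (adjusted p = 0.0903) and -1.05 without SCC1 PBS replicate 3 (adjusted p = 0.173), past the threshold in neither. TXNRD1 regions therefore moved in both directions within 1 gene.

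SLC7A11 encodes the cystine and glutamate exchanger that supplies cysteine for glutathione. In SCC6 its intronic region at 6.55 kb held 12.1, 12.7 and 27.2 in PBS and 38.4, 30.6 and 29.8 after cetuximab. The arms did not overlap, and the difference of 0.97 ± 0.33 (adjusted p = 0.0212) was lost in 8 of 15 alternatives, with an adjusted p of 0.0926 and 0.0505 when cetuximab replicates 1 and 2 were left out and of 0.0888 and 0.103 when PBS replicates 1 and 2 were. At the SLC7A11 promoter the signal was 114 and 133 in SCC1 PBS and 93.9, 85.6 and 73.6 in SCC1 cetuximab, and 82.2, 99.0 and 77.2 in SCC6 PBS and 99.0, 119 and 111 in SCC6 cetuximab. The differences had opposite signs, -0.55 ± 0.25 in SCC1 (adjusted p = 0.154) and 0.35 ± 0.17 in SCC6 (adjusted p = 0.115), and neither passed the test, nor did their comparison (interaction, adjusted p = 0.0616). With background scaling the SCC6 difference was 0.57 and passed (adjusted p = 0.00751).

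HMOX1 encodes haem oxygenase-1, which degrades haem. The upstream region with the antioxidant response elements shown, at -4.0 kb, was not called in any line, and its arms overlapped in each. The HMOX1 promoter gave 0.51 ± 0.26 in SCC1 (adjusted p = 0.209) and 0.53 ± 0.24 in SCC25 (adjusted p = 0.347), which did not pass the test. With median centring the SCC1 difference was 0.71 and passed (adjusted p = 0.0489). The called region of the window, at 19.0 kb, is the start of MCM5, a gene of the replicative helicase. It held 100.2 and 89.3 in SCC1 PBS and 146, 125 and 216 in SCC1 cetuximab, without overlap. The difference of 0.73 ± 0.23 (adjusted p = 0.0210) was lost with the GC trend removed (0.393) and when cetuximab replicates 1 (0.0583) or 3 (0.236) or PBS replicates 1 (0.152) or 3 (0.248) were left out.

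The promoters of NQO1 and GCLM, which encode the NRF2-regulated quinone reductase and the modifier subunit of the enzyme that begins glutathione synthesis, were among the strongest signals of the set and were not called in any line. NQO1, which shares its promoter region with the divergent transcript NQO1-DT, held 298 and 300.4 in SCC1 PBS and 393, 345 and 416 in SCC1 cetuximab. It held 224, 202 and 251 in SCC6 PBS and 167, 187 and 199 in SCC6 cetuximab, and SCC25 arms overlapped. The arms separated upward in SCC1 and downward in SCC6, but neither change passed (adjusted p = 0.137 and 0.0609), nor did the interaction (adjusted p = 0.0897). The SCC1 change of 0.36 ± 0.16 passed in 3 of 14 alternatives, among them without SCC1 cetuximab replicate 2 (0.43, adjusted p = 0.0235) and with median centring (0.56, adjusted p = 0.00901). The replicate number as a block gave the same difference as leaving out cetuximab replicate 2, so these 2 are not separate. The GCLM promoter lay between 81.8 and 155 in all SCC1 and SCC6 libraries and between 268 and 339 in all SCC25 libraries, and arms overlapped in each line.

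The aldo-keto reductases AKR1B10, AKR1C1 and AKR1C3 reduce carbonyls and steroids and are well-known NRF2 targets. At the AKR1B10 promoter, SCC1 held 10.4 and 23.4 in PBS and 1.27, 3.89 and 3.13 after cetuximab. These were only 8 and 21 reads in PBS and 1, 2 and 2 reads after cetuximab, where 1 read is the floor, so the size of the difference is uncertain. The arms did not overlap, and the difference of -2.22 ± 0.81 missed the threshold (adjusted p = 0.0531). Of 14 alternatives, 5 passed it, among them edgeR (0.0282), a pseudocount of 5 (0.0318) and leaving out SCC1 cetuximab replicate 2 (0.0395). The replicate number as a block gave the same difference as leaving out cetuximab replicate 2, so these 2 are not separate. SCC25 was at 11.7, 13.7 and 11.9 in PBS and 19.7, 8.47 and 10.6 after cetuximab. SCC6 PBS libraries were each at the floor of 1 read, which the table also gives to regions with none. AKR1C1 and AKR1C3 could hardly be measured. The region at the AKR1C1 start held at most 9 reads in any library, and the other 5 regions of the 2 genes were at the floor in all 17 libraries. Peak lists nevertheless held peaks over those 5 regions, each in 2 to 4 SCC6 libraries and with a fold enrichment of up to 11.2. In all, 6 of the 61 regions were at the floor in every library (9.84%), against 3251 of 115087 regions (2.82%), of which 3212 overlapped a called peak. No level is read from such regions here, and why a peak and a floor value occur together was not tested.

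**Figure D3:**
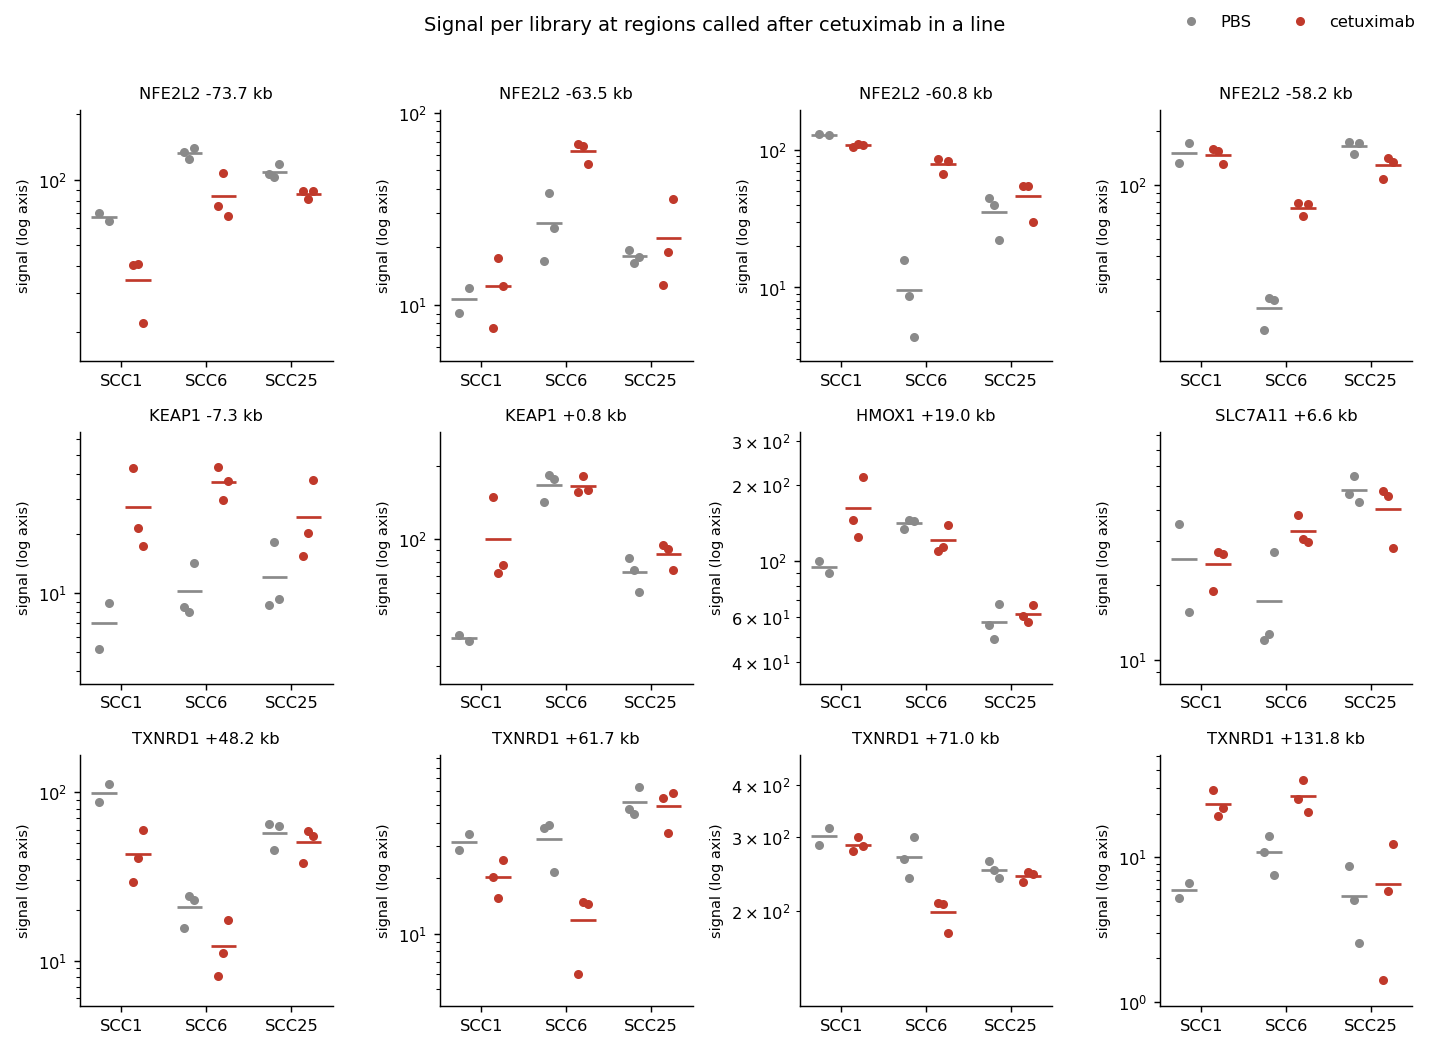
Signal on a log axis in every library at each region of the NRF2 pathway genes called after cetuximab in at least 1 line, by line, with PBS in grey, cetuximab in red and a bar at the mean. At NFE2L2 -60.8 kb the 3 SCC6 PBS points lie between 4.35 and 15.7 and the 3 cetuximab points between 66.8 and 85.9.

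The PBS libraries were compared between lines to give the untreated state of the pathway. Lines differed far more than arms did. SCC6 differed from SCC1 at 26 of 46 tested member regions, 9 higher and 17 lower in SCC6, where 30.7% of all 86315 tested regions were called higher and 30.5% lower. SCC25 differed from SCC1 at 33 of 46, 10 higher and 23 lower, where 28.2% of all tested regions were higher and 23.1% lower. SCC25 differed from SCC6 at 31 of 46, 18 higher and 13 lower, where 36.7% were higher and 32.1% lower. In TXNRD1, 6 of 9 tested regions were lower in SCC6 than in SCC1 and 6 of 9 were lower in SCC25 than in SCC1, with none higher in either comparison.

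These splits moved with the scaling. With background scaling, they were 4 higher and 29 lower for SCC6 against SCC1, 14 and 10 for SCC25 against SCC1 and 34 and 2 for SCC25 against SCC6, and the medians of all regions moved from -0.06 to -0.63, from -0.04 to 0.27 and from 0.06 to 0.97. With median centring they were 6 and 24, 6 and 29, and 15 and 16. With the GC trend removed they were 16 and 15, 9 and 20, and 12 and 21. Over all 86315 tested regions, background scaling gave 18973 and 41816, 31020 and 12566, and 53417 and 13978. Median centring gave 21696 and 35370, 17810 and 36595, and 29176 and 31278 over all regions. Removal of the GC trend gave 34599 and 20164, 23371 and 19308, and 25608 and 36976.

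In NFE2L2, 2 of the distal regions that opened in SCC6 after cetuximab were far lower in untreated SCC6 than in untreated SCC1. The PBS difference of SCC6 against SCC1 was -3.77 ± 0.43 at -60.8 kb (adjusted p = 1.55e-06) and -2.82 ± 0.21 at -58.2 kb (adjusted p = 1.78e-08). SCC25 was lower than SCC1 at -60.8 kb (-1.89 ± 0.43, adjusted p = 0.00166), and at -58.2 kb they were not shown to differ (0.13 ± 0.21, adjusted p = 0.633). Since these differences and the SCC6 change share the SCC6 PBS libraries, a low value in those libraries enters both. At -63.5 kb the order was the reverse, with SCC6 above SCC1 by 1.18 ± 0.40 (adjusted p = 0.0187), a call lost in 6 of 17 alternatives, among them median centring (0.0708), quantile normalisation (0.129), background scaling (0.178) and leaving out SCC1 PBS replicate 1 (0.0980) or SCC6 PBS replicate 2 (0.0863). Other NFE2L2 regions also differed between lines. The intronic region at 19.5 kb was highest in SCC6, with PBS means of 33.9 ± 18.4 (SD) in SCC1, 70.6 ± 8.29 in SCC6 and 13.3 ± 4.20 in SCC25 (-2.36 ± 0.32 for SCC25 against SCC6, adjusted p = 8.85e-06). At 12.5 kb, in an untranslated exon, SCC1 was highest, with 68.6 ± 2.3 against 13.6 ± 0.76 in SCC6 and 20.8 ± 6.48 in SCC25 (-1.71 ± 0.34 for SCC25 against SCC1, adjusted p = 5.66e-04). At -87.4 kb, in an intron, SCC6 was lowest, with 8.60 ± 7.04 against 28.0 ± 4.63 in SCC1 and 29.6 ± 7.63 in SCC25 (2.06 ± 0.57 for SCC25 against SCC6, adjusted p = 0.00444). The region at -17.2 kb was lowest in SCC6 (-3.28 ± 0.43 against SCC1, adjusted p = 8.50e-06, and SCC25 above SCC6 by 2.12 ± 0.39, adjusted p = 1.62e-04). The region at -49.7 kb was open in SCC25 only, with 33.9, 46.2 and 35.6 in PBS against 1.09 to 6.02 in the PBS libraries of the other lines (3.01 ± 0.49 against SCC1, adjusted p = 1.21e-04). The region at -137.7 kb, in the AGPS gene, was open in SCC6 only, with 48.3, 40.1 and 38.1 against 1.30 to 6.70 (3.35 ± 0.54 against SCC1, adjusted p = 6.74e-05). The low PBS values rested on few reads, with 3, 5 and 2 in SCC6 at -17.2 kb. In SCC1 they were 2 and 5 reads at -49.7 kb and 1 and 6 at -137.7 kb. The sizes of these differences are therefore uncertain. The region at -132.6 kb, in the AGPS gene, was lowest in SCC1 and highest in SCC25, with each step past the test (1.54 ± 0.17 for SCC6 against SCC1, 0.78 ± 0.16 for SCC25 against SCC6).

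The KEAP1 promoter was lowest in SCC1 and highest in SCC6, with PBS means of 39.1 ± 1.67 (SD), 72.7 ± 11.8 in SCC25 and 167 ± 22.7 in SCC6. The SCC6 difference from SCC1 was 2.06 ± 0.19 (adjusted p = 1.77e-07) and that of SCC25 from SCC1 was 0.86 ± 0.19 (adjusted p = 0.00148), the latter lost with median centring (0.0804). SCC25 was lower than SCC6 by a difference of -1.19 ± 0.17 (adjusted p = 1.47e-05), which shrank to -0.27 (adjusted p = 0.164) with background scaling. The surroundings of KEAP1 went the same way, with medians over 114 other regions within 1 Mb of 2.2, 1.04 and -1.11 and 100, 78 and 98 of them called in these comparisons. Whether copy number or another property of this part of chromosome 19 sets these values was not tested.

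All 4 regions of HMOX1 were called lower in SCC25 than in SCC1 and than in SCC6, and background scaling ended at least 3 of the 4 calls against SCC6. At the promoter the PBS means were 74.9 ± 6.38 (SD) in SCC1, 83.8 ± 9.07 in SCC6 and 35.2 ± 6.23 in SCC25, with differences of SCC25 from SCC1 of -1.08 ± 0.22 (adjusted p = 6.66e-04) and from SCC6 of -1.24 ± 0.19 (adjusted p = 3.53e-05). With background scaling, the promoter difference from SCC6 shrank to -0.32 (adjusted p = 0.137), and the one at 19.0 kb (-1.29 ± 0.16, adjusted p = 2.78e-06) also missed the threshold (adjusted p = 0.0576). Here too the surroundings moved alike, with medians within 1 Mb of -1.05 (42 of 65 called) against SCC1 and -1.30 (50 of 65) against SCC6, and the part of the neighbourhood was not tested.

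GCLM went the other way. Its promoter had PBS means of 125 ± 5.24 in SCC1, 101 ± 13.4 in SCC6 and 283 ± 13.3 in SCC25, and SCC25 exceeded SCC1 by 1.17 ± 0.14 (adjusted p = 6.13e-06) and SCC6 by 1.48 ± 0.12 (adjusted p = 4.29e-08). SCC1 and SCC6 were not shown to differ (-0.30 ± 0.14, adjusted p = 0.0718). The other region of the window, at the start of DNTTIP2, was called higher in SCC25 in both comparisons too. Medians within 1 Mb were 1.05 against SCC1 (106 of 148 called) and 1.99 against SCC6 (135 of 148).

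The NQO1 promoter was highest in SCC1, with PBS means of 299 ± 1.72, 226 ± 24.7 in SCC6 and 218 ± 11.01 in SCC25. The differences from SCC1 were small, -0.41 ± 0.12 for SCC6 (adjusted p = 0.00603) and -0.45 ± 0.12 for SCC25 (adjusted p = 0.00405). The SCC6 difference turned to 0.36 (adjusted p = 0.0247) when the trend with GC content was removed, and that of SCC25 shrank to -0.25 (adjusted p = 0.123). With background scaling the SCC25 difference shrank further, to -0.12 (adjusted p = 0.408). At 15.03 kb, in an intron, SCC6 was lower than SCC1 by a larger margin (-2.57 ± 0.49, adjusted p = 3.02e-04).

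Distal regions of SLC7A11 differed between lines. At 53.6 kb the PBS signal was 75.7, 63.5 and 62.8 in SCC25, 20.8 and 8.93 in SCC1 and 2.42, 3.35 and 3.26 in SCC6, the largest difference of the set between SCC25 and SCC6 (4.09 ± 0.38, adjusted p = 1.43e-07). The SCC6 PBS libraries held only 2, 5 and 3 reads at 53.6 kb, so the size of this difference is uncertain. At 50.0 kb, SCC6 and SCC25 were higher than SCC1 (2.21 ± 0.41, adjusted p = 2.26e-04, and 2.50 ± 0.41, adjusted p = 1.19e-04). The SCC1 PBS libraries held only 4 and 3 reads at 50.0 kb. At 83.4 kb, SCC25 was above SCC1 (1.31 ± 0.40, adjusted p = 0.0126), a call lost with median centring (0.0821) and quantile normalisation (0.190). The promoter was lower in SCC25 than in SCC1 (-0.78 ± 0.22, adjusted p = 0.00836), a call lost without SCC1 PBS replicate 3 (0.0693) and with background scaling (0.103). Within 1 Mb of SLC7A11, the other regions had medians of -0.56 for SCC6 against SCC1 (28 of 48 called). For SCC25 they were 0.18 against SCC1 (11 of 48) and 0.80 against SCC6 (32 of 48). TXNRD1 at 79.7 kb was highest in SCC1 and lowest in SCC25, with SCC25 lower than SCC1 by a difference of -2.85 ± 0.45 (adjusted p = 8.66e-05). Its difference of SCC25 from SCC6 (-1.50 ± 0.40, adjusted p = 0.00368) was lost with background scaling (0.116). In the AKR1B10 window, 3 of 4 tested regions were lower in SCC6 and in SCC25 than in SCC1. The other regions within 1 Mb had medians of -0.64 and -1.12, with 36 and 41 of 61 called, and the part of the neighbourhood was not tested. At 21.5 kb, the start of AKR1B15, the differences were -2.92 ± 0.41 (adjusted p = 1.73e-05) and -1.79 ± 0.41 (adjusted p = 0.00205). The region of AKR1B10 with the highest mean signal, at 5.98 kb, was not shown to differ between lines (differences of -0.18 to 0.05).

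**Figure D4:**
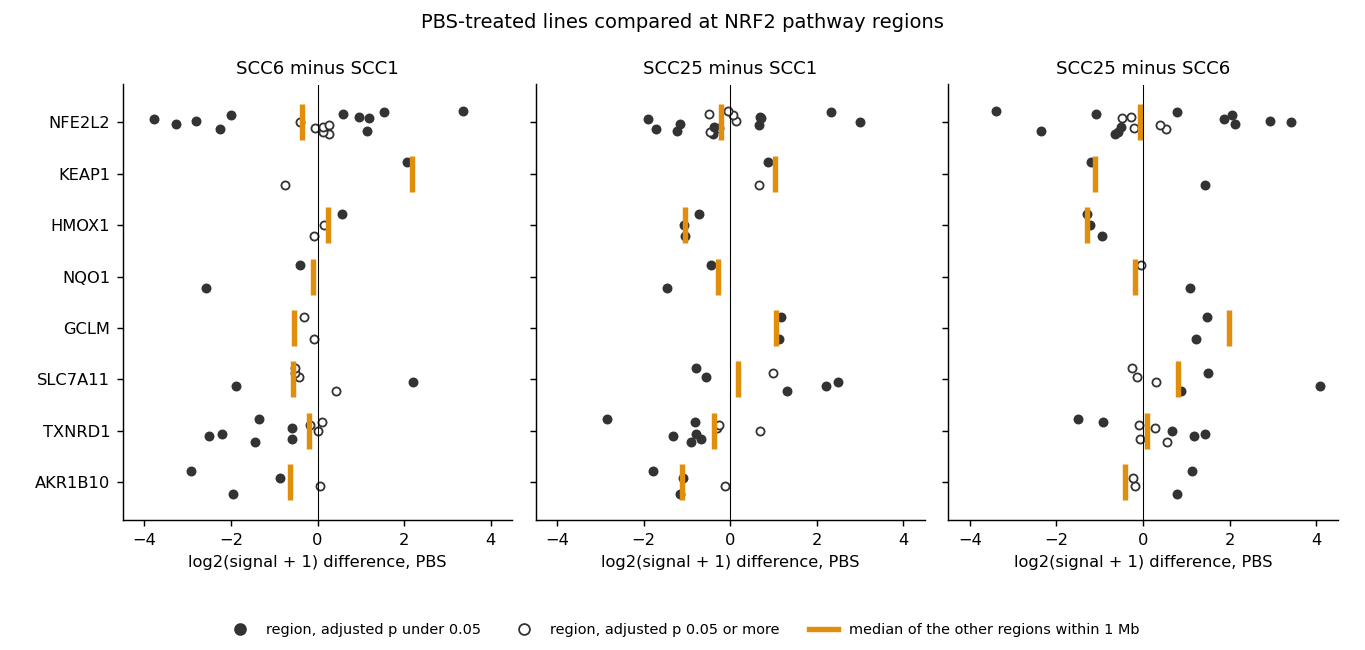
Difference in log2(signal + 1) between the PBS libraries of each pair of lines at the tested regions of 8 NRF2 pathway genes without 1 HMOX1 region not reported here (points, filled where the adjusted p was under 0.05), with an orange bar at the median of the other regions within 1 Mb. For HMOX1, GCLM and KEAP1 the orange bars lie on the same side of 0 as the promoter regions, with medians of -1.30, 1.99 and -1.11 for SCC25 against SCC6. In that comparison the medians for SLC7A11 and TXNRD1 were 0.80 and 0.09. Their strongest promoter regions (-0.26 and -0.09) did not pass the test (adjusted p = 0.256 and 0.436), so no direction is read from them.

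The other genes of the pathway were read from a list of 34 genes (small MAF partners and other regulators, glutathione, thioredoxin, NADPH, detoxification, efflux and iron genes), whose windows held 160 regions, 1 of them shared with the member genes. In SCC1, 23 of 128 tested regions were called, 18 higher and 5 lower, against 4.58% and 6.56% of all regions. In SCC6, 27 of 127 were called, 10 higher and 17 lower, against 16.9% and 10.6%. The SCC1 count fell to 4 with the GC trend removed, and it was 6 and 9 when PBS replicates 1 and 3 were left out and 13, 35 and 12 when cetuximab replicates 1, 2 and 3 were. The SCC6 split was 5 higher and 33 lower with median centring, 5 and 24 with quantile normalisation, 7 and 23 with edgeR, 5 and 20 with DESeq2, 8 and 9 with the GC trend removed and 21 and 8 with background scaling, and 17 regions were called in all when PBS replicate 2 or cetuximab replicate 2 was left out. In SCC25, limma called 0 of 129 (10 at an unadjusted p under 0.05), edgeR 0 (12) and DESeq2 0 (6), while background scaling gave 0 higher and 15 lower. Over all 86315 tested regions, 11405, 11871 and 8056 had an unadjusted p under 0.05 with limma, edgeR and DESeq2. Background scaling called 106 higher and 13488 lower over all regions. The interaction passed at 21 of 130, against 13.2% of all regions. At promoter regions the direction was opposite in the 2 lines, with 10 higher and 1 lower of 43 in SCC1 and 0 higher and 7 lower of 44 in SCC6. Over all regions within 1 kb of a protein-coding start site, 12.6% were called higher and 2.12% lower in SCC1, and 5.65% higher and 10.9% lower in SCC6, so promoters in general leaned the same ways. With the GC trend removed, 0 of the 43 were called in SCC1, and 1 higher and 2 lower of the 44 in SCC6. The SCC1 promoter count was 3 without PBS replicate 1 or 3, 5 without cetuximab replicate 1 or 3, and 16 without cetuximab replicate 2. The SCC6 count was 4 without PBS replicate 2 or without cetuximab replicate 1.

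The promoter calls named next share the limits given above. With the GC trend removed, 0 of the 43 promoter regions were called in SCC1, so each SCC1 call below was lost there. Among the regulators, promoters of all 3 small MAF genes, whose products pair with NRF2 on DNA, rose in SCC1, with differences of 1.75 ± 0.33 for MAFK (adjusted p = 1.94e-05), 0.99 ± 0.26 for MAFG (adjusted p = 0.00379) and 0.85 ± 0.25 for MAFF (adjusted p = 0.0101). Over all promoter regions, 12.6% were called higher in SCC1. The MAFK promoter had means of 24.9 ± 5.81 in SCC1 PBS and 85.5 ± 13.4 in SCC1 cetuximab. MAFF fell in SCC6 (-0.64 ± 0.20, adjusted p = 0.0122), and its change differed between lines (interaction, adjusted p = 0.0116). CUL3, the ligase scaffold bound by KEAP1, fell in SCC6 at its start, from 395 ± 18.7 to 259 ± 4.97 (-0.61 ± 0.09, adjusted p = 1.18e-06, interaction adjusted p = 7.88e-04). RBX1, the ring subunit of that ligase, and SQSTM1, which binds KEAP1 for autophagy, rose in SCC1 (0.80 ± 0.22, adjusted p = 0.00776, and 0.94 ± 0.30, adjusted p = 0.0204). Among the target genes, GCLC, the catalytic partner of GCLM, fell in SCC6 from 198 ± 21.5 to 103 ± 12.2 (-0.93 ± 0.14, adjusted p = 9.33e-07). TXN, the thioredoxin that TXNRD1 reduces, also fell in SCC6 (-0.63 ± 0.12, adjusted p = 1.05e-04) and differed between lines (interaction, adjusted p = 0.00214). FTL, a ferritin chain, rose in SCC1 (1.19 ± 0.32, adjusted p = 0.00470). Of the other called promoter regions, 2 of TALDO1 and 1 each of BLVRB and GSS rose in SCC1 and that of PIR fell, while ABCC3, TALDO1 and a second CUL3 region fell in SCC6.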

How the data were processed

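The authors, per the labels, trimmed reads with Trim Galore 0.5.0, aligned them with Bowtie2 2.3.2 to hg19, filtered with Picard 2.18 and SAMtools 1.9, called broad peaks per library with MACS2 and merged them into regions. The deposited signal is a scaled read count per region, with 0 reads set to 1. All values (100%) were whole reads within 0.001 times 1 step per library. The deposited peak lists give fold enrichment as a ratio, and a peak counted for a region it overlapped by at least 1 base. The log2(signal + 1) was tested two-sided with limma 3.58.1 in R 4.3.3, using robust empirical Bayes with a trend, without the 25% of regions lowest in mean signal, and Benjamini-Hochberg adjustment over all tested regions (threshold 0.05). Each line was fitted alone, the interaction on all 17 libraries and the line comparison on PBS libraries. Reads recovered from the signal were refitted with edgeR 4.0.16, which called 11043, 24745 and 968 of all regions in SCC1, SCC6 and SCC25, and with DESeq2 1.42.0. Other alternatives were median centring, quantile normalisation, background scaling, a pseudocount of 5, no filter, removal of a trend with GC content, a replicate block, an adjusted p under 0.01 and leaving out each library. Scripts were tested on simulated data. Python 3.11.15, numpy 2.4.6, pandas 2.3.3 and matplotlib 3.10.9 were used. The text names the strongest promoter region and strongest region of each gene, all regions called after cetuximab and the 5 largest called differences per direction between lines, except 1 region, plus sequences and neighbouring values chosen later. The members and lists were chosen with earlier results of these data known. That region and 1 marker gene are not reported here.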

Additional observations from a re-analysis of the deposited data

Results flagged for a closer look

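At 3 regions the change after cetuximab differed between the lines by the interaction test of limma over all libraries. At NFE2L2 -58.2 kb the adjusted p was 4.07e-06, with differences of 1.82 in SCC6, -0.03 in SCC1 and -0.36 in SCC25, and it ran up to 8.42e-05 over the 26 alternatives. At NFE2L2 -60.8 kb the adjusted p was 3.58e-05, with differences of 3.05, -0.25 and 0.39, and it ran up to 0.00130 over the alternatives. At the KEAP1 promoter region the adjusted p was 0.0165, with differences of -0.01, 1.25 and 0.25 in the same order of lines. There it ran from 7.39e-04 to 0.422 over the alternatives, and 5 of the 26 ended the call, among them leaving out SCC1 cetuximab replicate 1 (0.0569).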

How the results depend on the processing

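Of the regions called after cetuximab in SCC6, NFE2L2 at -58.2, -60.8, -63.5 and -73.7 kb, KEAP1 at -7.3 kb and TXNRD1 at 61.7 kb kept their call and direction under all 15 alternatives. The count of regions called in SCC1 (6) was 3 without the filter on low regions, 3 with DESeq2, 1 with the GC trend removed, 2 at an adjusted p under 0.01 and 1 to 9 when each library was left out. The SCC6 count (9) was 16 with median centring and 7 to 11 when each library was left out. The SCC25 count (0) was 7 with background scaling, where 13594 of all 86315 tested regions were called, and 0 whichever library was left out. The interaction count (3) was 11 with median centring, 6 with quantile normalisation, 13 with background scaling, 5 with a pseudocount of 5, 9 with edgeR, 5 with DESeq2 and 2 to 5 when each library was left out (5 without SCC1 cetuximab replicate 2 or SCC25 cetuximab replicate 1). Between PBS libraries, SCC25 against SCC1 (33) gave 20 at an adjusted p under 0.01 and 24 to 36 when each library was left out, SCC6 against SCC1 gave 21 to 28 and SCC25 against SCC6 gave 26 to 31. The NQO1 promoter difference of SCC6 from SCC1 reversed to 0.36 with the GC trend removed. The causes were not tested. With the replicate number as a block the counts were 9 in SCC1, 9 in SCC6, 0 in SCC25, 4 for the interaction and 26, 30 and 30 between lines. The numbers did not pair the libraries, since deviations of same-numbered libraries correlated by -0.0232 to 0.0383. Promoter changes under 0.3 on the log2 scale (16 comparisons) turned sign under at least 1 alternative in 14 cases, and no direction is read from them. Depth limits the weak regions most, since a library's floor is 1 read.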
